A study of Mus musculus with 50 samples.

Results

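Long noncoding RNAs are transcripts beyond the length of the small RNAs that are not translated into a known protein. The 150 genes described here are the most abundant of them in RAW264.7 cells, a mouse macrophage line. They were chosen from 9950 genes annotated as lncRNA by the mean of the deposited TPM (a length-scaled level whose sum is the same in every library) over all 50 libraries. Neat1 was to be left out of the choice, but it ranked 171 and so was not among them. Of the 9950 genes, 3970 had a TPM above 0 in any library. The table held 55416 genes in all, of which 21885 were protein coding. Because abundance chose the members, their high levels are a description. They were ranked over resting and stimulated libraries together, so a gene that is high only after stimulation could enter by that route.

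The study asked how the serum- and glucocorticoid-regulated kinases SGK1 and SGK3 bear on the response to DMXAA, an agonist of mouse STING, the receptor of the cytosolic DNA sensing pathway. Knockout lines were made with CRISPR guide RNAs. In batch b1, 26 libraries came from SGK3 knockout cells with DMXAA (n = 5), SGK1/3 double knockout (dKO) cells with DMXAA (n = 5), WT cells given the SGK inhibitor Sanofi-14h before DMXAA (SGKi, n = 5), WT cells with DMXAA (n = 5), SGK3 knockout cells at rest (n = 3) and WT cells at rest (n = 3). In batch b2, 20 libraries came from SGK1 knockout cells with DMXAA (n = 4), dKO cells with DMXAA (n = 3), WT cells with DMXAA (n = 4), and SGK1 knockout, dKO and WT cells at rest (n = 3 each). WT cells carried a control or empty guide RNA vector. DMXAA was given at 10 µg/mL for 2 h, and Sanofi-14h at 500 nM from 2 h before it. The labels name 1 line per genotype without saying whether it was a clone, and they mention the vehicle DMSO without saying which controls received it. Genotypes were compared only within a batch. A further 4 libraries were marked as reruns and enter no comparison. Since no label states that a group's libraries came from different cultures, the p-values below reflect only how far these libraries scatter, which may be technical.

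Long noncoding RNAs are commonly grouped by what their loci hold. Host genes of small nucleolar RNAs (snoRNAs), such as Gas5, Zfas1 and the Snhg genes, carry snoRNAs in their introns, and their spliced RNAs are short-lived because many are translated from stop-rich frames and degraded by nonsense-mediated decay. MicroRNA hosts such as Mir17hg and Mir22hg are cut to release microRNAs. Malat1, Neat1 and Firre are kept in the nucleus, while Norad is a cytoplasmic RNA that binds Pumilio proteins. Others start beside a coding gene on the opposite strand and share its promoter region. In macrophages, STING activates IRF3 and NF-kappa B, and interferon-stimulated loci such as the Oas genes and the Sp100 family locus are switched on within hours.

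Sequences are shown for the promoters of 4 members whose levels carry the findings below: Gm20559 and Gm7160, which rose in every DMXAA response, Ttc39aos1, which fell, and Gas5, the most abundant snoRNA host. They are RefSeq windows on GRCm38.p6 from 250 bases before to 50 bases after a start, 300 bases each, and a RefSeq start need not be the start of the annotation used for counting. Capitals mark an AP-1 motif (TGANTCA) in Ttc39aos1, which begins 72 bases before the start, and a cyclic-AMP response element (TGACGTCA) in Gas5, 46 bases before it.
Gm20559, chr6:3346092-3346391, minus strand: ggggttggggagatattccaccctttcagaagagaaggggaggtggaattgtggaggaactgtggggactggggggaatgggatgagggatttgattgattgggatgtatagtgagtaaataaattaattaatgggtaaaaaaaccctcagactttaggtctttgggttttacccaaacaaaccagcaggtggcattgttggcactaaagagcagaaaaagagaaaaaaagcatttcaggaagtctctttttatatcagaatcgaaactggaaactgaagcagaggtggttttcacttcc
Gm7160, chr1:105990233-105990532, minus strand: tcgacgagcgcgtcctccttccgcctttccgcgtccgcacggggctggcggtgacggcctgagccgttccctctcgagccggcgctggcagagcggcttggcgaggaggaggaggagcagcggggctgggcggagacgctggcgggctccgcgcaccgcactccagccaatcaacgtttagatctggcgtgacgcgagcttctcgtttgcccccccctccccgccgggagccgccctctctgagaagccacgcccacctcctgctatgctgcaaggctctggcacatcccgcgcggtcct
Ttc39aos1, chr4:109406208-109406507, minus strand: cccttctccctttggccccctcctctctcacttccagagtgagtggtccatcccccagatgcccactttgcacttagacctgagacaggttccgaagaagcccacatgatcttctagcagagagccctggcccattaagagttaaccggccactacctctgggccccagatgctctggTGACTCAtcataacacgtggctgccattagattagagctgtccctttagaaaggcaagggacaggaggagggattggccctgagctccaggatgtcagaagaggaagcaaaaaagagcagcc
Gas5, chr1:161034916-161035215, plus strand: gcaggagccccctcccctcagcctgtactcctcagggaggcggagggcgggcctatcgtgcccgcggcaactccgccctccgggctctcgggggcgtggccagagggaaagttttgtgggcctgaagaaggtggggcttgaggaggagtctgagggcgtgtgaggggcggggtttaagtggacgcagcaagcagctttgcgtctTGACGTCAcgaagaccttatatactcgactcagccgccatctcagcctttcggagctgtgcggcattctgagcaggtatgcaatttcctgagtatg

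Of the 150 members, 10 hold annotated microRNAs. The mature microRNAs of 3 of these hosts are shown from RefSeq with the seed, bases 2 to 8, in capitals, because the seed decides which messages a microRNA can pair with. In Mir17hg, miR-17-5p and miR-20a-5p share a seed, and miR-19a-3p and miR-19b-3p share another. The poly-A libraries measured the host transcripts and not these mature RNAs.
miR-22-3p of Mir22hg: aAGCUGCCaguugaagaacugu
miR-22-5p of Mir22hg: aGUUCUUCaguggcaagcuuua
miR-17-5p of Mir17hg: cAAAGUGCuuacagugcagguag
miR-20a-5p of Mir17hg: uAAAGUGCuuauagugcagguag
miR-19a-3p of Mir17hg: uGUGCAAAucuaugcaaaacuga
miR-19b-3p of Mir17hg: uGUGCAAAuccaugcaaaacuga
miR-142a-3p of Mir142hg: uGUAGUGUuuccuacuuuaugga

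Total counts per library were 57859509 to 101068327 in b1 and 63461414 to 112007140 in b2. Macrophage markers were high in every library (summed TPM 7657 to 10279 in b1 and 8755 to 15088 in b2), and those of the other 7 cell types examined summed to at most 3.68 TPM. In b2 the summed macrophage markers were lower in knockout cells in both states. Most of the sum is Lyz2, at 5071 to 10929 TPM over all libraries, against 982 to 1713 TPM for the next highest marker, Cd14. The sums thus mainly follow Lyz2, and the other markers are not given by group. With DMXAA the sums were 9814 to 10645 TPM in SGK1 knockout and 8755 to 9640 TPM in dKO, against 13587 to 15088 TPM in WT. At rest they were 10833 to 11760 TPM in SGK1 knockout and 10709 to 11493 TPM in dKO, against 13006 to 14088 TPM in WT. Sgk1 RNA with DMXAA averaged 3.60 ± 0.74 TPM in dKO cells of b1 and 38.0 ± 3.16 TPM in WT cells of b1 (SD, n = 5 each), and 3.57 ± 2.14 TPM in SGK1 knockout (SD, n = 4), 2.39 ± 1.02 TPM in dKO (SD, n = 3) and 27 ± 4.70 TPM in WT cells of b2 (SD, n = 4). At rest in b2 the library labelled SGK1 knockout replicate 3 held 3.90 TPM of Sgk1, against 0.104 and 0.156 TPM in the other 2 so labelled and 0.833 to 2.48 TPM in WT. Its Sgk1 level thus goes against its label. An RNA level does not show the edited site, and the genotype of this library was not tested. Sgk3 RNA was not lower in SGK3 knockout cells, at 51.4 ± 1.99 TPM with DMXAA, against 49.97 ± 3.88 TPM in WT (SD, n = 5 each), and its level does not show the edited site. In 4 libraries of b2 the counts rose with transcript length by more than 0.1 log2 units per doubling, relative to the other libraries: SGK1 knockout rest replicates 2 (0.204) and 3 (0.314), SGK1 knockout DMXAA replicate 2 (0.180) and dKO DMXAA replicate 3 (0.176). Others of b2 sloped the other way: WT rest replicate 2 (-0.170), WT DMXAA replicates 2 (-0.135) and 4 (-0.154) and dKO DMXAA replicate 1 (-0.131). So did dKO rest replicates 1 (-0.105) and 3 (-0.104). Below, the term libraries with a length trend means the 4 that rose, and those that fell were not left out with them. All libraries of b1 lay between -0.111 and 0.081. In such bulk libraries fewer cells with an RNA and less of it per cell cannot be told apart.

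The 150 members together held 83.1% of the TPM of all long noncoding RNA genes, 5030.5 of 6050.1 on average per library. The 10 highest held 60.2% of the members' sum. Gm10076, a gene of 384 bases, was the most abundant with a mean of 924 TPM and a range of 228 to 1608, followed by Gm46620 (856, 554 to 1249) and Gas5 (287, 93.8 to 512). The next were 1110038B12Rik (188), AI662270 (173), Snhg1 (136), Zfas1 (125), Gm42047 (122), 2410006H16Rik (118) and Gm47283 (103). AI662270 varied least among these, with 141 to 218 TPM over the 50 libraries, while 2410006H16Rik ran between 13.4 and 266 TPM and Zfas1 between 17.4 and 282 TPM. Malat1, which is retained in the nucleus, ranked 11 with 83.5 TPM. In all, 10 members averaged above 100 TPM, 60 between 10 and 100 and 80 below 10, with a median of 9.09 TPM.

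**Figure D1:**
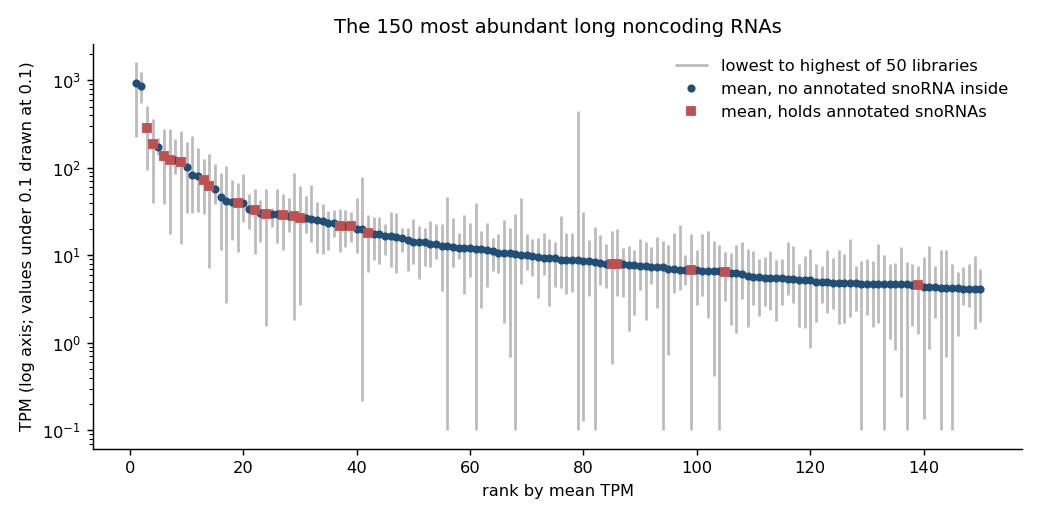
Level of each of the 150 members against its rank. Points give the mean TPM over 50 libraries on a log axis on which values under 0.1 are drawn at 0.1, red squares the 21 members that hold annotated snoRNAs, and grey lines the lowest to the highest library. Gm10076 and Gm46620 stand above the rest at 924 and 856 TPM, and the tall line at rank 79 is Rps18-ps4.

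The choice of members drew on the stimulated libraries. Ranked over the 15 resting libraries alone, 136 of the 150 would have been chosen, and over the 34 libraries with DMXAA 145. The 14 members that the resting ranking would drop included A530040E14Rik, Gm10552, Gm16028, Gm13822, Gm7160, Gm19710, 1600020E01Rik, 2500002B13Rik and Dancr, all described below. Their rise with DMXAA helped to choose them, so it is a description and its size and count support nothing about abundant long noncoding RNAs as a class. The last members inside the limit were Mypopos and Zeb2os, both at 4.15 TPM, and the first outside were Sp3os (4.07 TPM) and Ftx (4.05 TPM). One member rests on 1 library. Rps18-ps4 was listed at 442.8 TPM in SGKi replicate 3 and 0.208 TPM in SGKi replicate 5, and at 0 in the other 48 libraries, and it was too sparse to be tested, which left 149 members tested in each batch.

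Members could share reads with other genes, and how the authors treated such reads was not given in the sources used here. In the transcripts of GENCODE M21, an older annotation than that of the counts, 14 of the 150 members shared more than 50% of their 50-base words with transcripts of another gene on either strand, and 33 shared none. Gm10076 shared 69.9% with Rpl41, a ribosomal protein gene, and Gm46620 83.8% with Gm42427. Erdr1 shared 59.7% with Gm47283, Norad 39.5% with Gm7292, and Gm10552 48.2% with A530040E14Rik. Of its own words, Gm7292 shared 77.5% with transcripts of other genes. The levels of these members are uncertain to that extent, and a pair that shares words is not a pair of independent observations. Gm13822, Gm7160, Ttc39aos1, Gm26532, Gm43351 and 1700058P15Rik shared none, and Oip5os1 shared 0.3%.

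Many members lie against coding genes. On GRCm39, 14 overlapped a coding gene on the same strand, 56 only on the other strand, and 80 overlapped none. A coding gene on the opposite strand started within 1000 bases of 41 members. Whether the counting used strand was not given in the sources used here, so the values of overlapping members are uncertain. In 21 members 53 snoRNAs are annotated on the same strand, of which Gas5 holds 10, Snhg1 holds 8 and Snhg12 holds 5. The members were spread over 21 chromosomes, with a median span of 7969 bases.

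The summed TPM of the 150 members in b1 averaged 5244 ± 258 TPM in SGK3 knockout cells with DMXAA, 5310 ± 287 in dKO cells with DMXAA, 6473 ± 386 in SGKi-treated WT cells with DMXAA and 5551 ± 286 in WT cells with DMXAA (SD, n = 5 each). At rest it averaged 4603 ± 193 TPM in SGK3 knockout and 5072 ± 376 TPM in WT cells (SD, n = 3 each). The SGKi value includes the 442.8 TPM of Rps18-ps4 in 1 library. In b2 it averaged 4039 ± 428 TPM in SGK1 knockout (n = 4), 4288 ± 605 in dKO (n = 3) and 4788 ± 503 in WT cells (n = 4) with DMXAA, and 4042 ± 207, 4447 ± 328 and 4350 ± 289 TPM in the same genotypes at rest (SD, n = 3 each).

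Members that rose and members that fell with DMXAA were about as many in WT cells of b1, where 34 of 149 rose and 32 fell (edgeR quasi-likelihood test, Benjamini-Hochberg adjusted p under 0.05). Of all genes tested 35.3% were called, 17.9% higher and 17.4% lower. Of the members called, 14 rose and 5 fell by 2-fold or more, against 967 (5.71%) and 506 (2.99%) of the 16947 genes tested. Among the 136 members that the resting ranking also holds, 24 rose and 32 fell, 6 and 5 of them by 2-fold or more, a count in which choice by resting level favours falls as choice by stimulated level favours rises. Here and below, a log2 fold change is given with its standard error. The members' median log2 fold change was -0.07 and that of all genes 0.00. Over all long noncoding RNA genes tested, 325 of 1545 (21.0%) were called, against 5405 of 12407 coding genes (43.6%). In SGK3 knockout cells 41 members rose and 13 fell, with 30.1% of all genes called (16.4% higher, 13.7% lower) and a median of 0.14. In b2, where fewer genes passed in all, 15 members rose and 10 fell in SGK1 knockout cells (11.2% of all genes called, 5.9% higher and 5.28% lower). In dKO cells 5 rose and 6 fell (6.76% of all genes, 4.31% higher and 2.45% lower), and in WT cells 5 rose and 2 fell (3.98%, 2.52% higher and 1.46% lower). These b2 counts changed when single libraries were left out. In SGK1 knockout cells 25 members were called, 16 without DMXAA replicate 3, 11 without rest replicate 2, 12 without rest replicate 3, the library whose Sgk1 level goes against its label, and 6 without the libraries with a length trend. In dKO cells 11 were called, 7 without DMXAA replicate 1 and 6 without rest replicate 2, and in WT cells 7, of which 3 were left without DMXAA replicate 4, rest replicate 1 or rest replicate 3 and 4 without rest replicate 2.

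**Figure D2:**
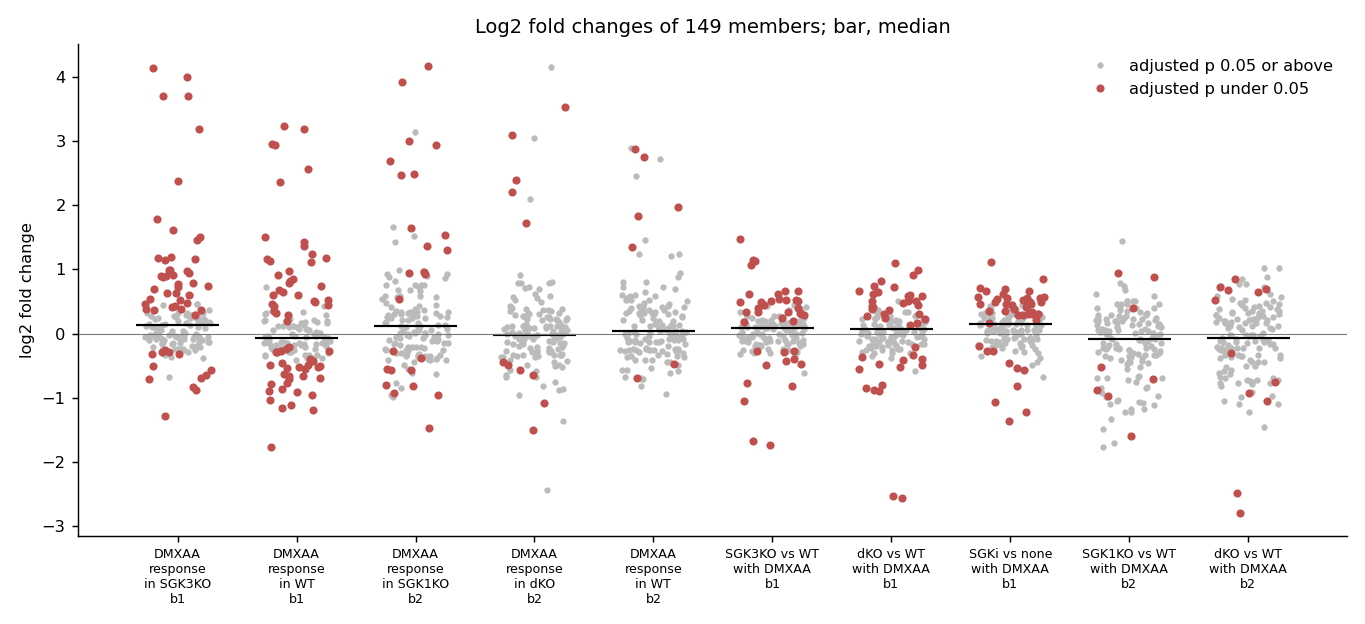
Log2 fold changes of the 149 tested members in 10 comparisons. Each point is a member, red where the adjusted p was under 0.05, and the bar is the members' median. In each DMXAA response a few members stand near or above 3, several of them members only through the stimulated libraries, while the medians lie between -0.07 and 0.14, and with DMXAA the lowest members fall below -2.5 in dKO cells of both batches.

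The 2 batches share no library. All 5 members that rose in b2 were among the 34 that rose in b1 (14.7% of those), and both that fell in b2 were among the 32 of b1 (6.25%). Among the 5 were A530040E14Rik and Gm10552, which share sequence and are not independent observations. Over the 15919 genes tested in both batches, 391 of the 419 that rose in b2 (93.3%) and 222 of the 243 that fell (91.4%) did so in b1 too, or 13.6% and 7.52% of those of b1. Of the 66 members called in b1, 60 had the same sign in b2 (90.9%), against 85.1% of all genes called there, so the members were near the share of all genes. Over all 5 DMXAA responses, 4 members rose every time (2.68% of 149, against 1.64% of all genes): Gm20559, A530040E14Rik, Gm7160 and 2500002B13Rik. Of these, Gm20559 alone would be a member by the resting libraries (0.735% of 136). One fell every time, 9930014A18Rik (0.671% of 149, against 0.446% of all genes).

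Gm20559 (chr6:3333194-3346128, minus strand, GRCm39 as for all gene positions below) lies 26129 bases from Samd9l, a gene induced by interferon, and ranked 17 with 41.6 TPM. Its level is given as CPM, the count scaled to a common library size by TMM, a measure for comparing libraries within a gene. With DMXAA it held 93.4, 122, 99.3, 109 and 109 CPM in SGK3 knockout cells and 135, 135, 139, 167 and 169 CPM in WT cells of b1. At rest it held 5.72, 6.03 and 6.35 CPM in SGK3 knockout cells and 23.4, 11.1 and 12.7 CPM in WT cells. Every stimulated library was above every resting one, in each genotype. The log2 fold change was 4.14 ± 0.20 in SGK3 knockout (adjusted p = 5.14e-13) and 3.24 ± 0.19 in WT cells (adjusted p = 4.75e-12). In b2 it was 3.00 ± 0.16 in SGK1 knockout (adjusted p = 7.58e-11), 3.53 ± 0.17 in dKO (adjusted p = 5.05e-11) and 1.98 ± 0.15 in WT cells (adjusted p = 2.18e-08).

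A530040E14Rik (chr1:85083667-85091756, plus strand) lies across the Sp100 family locus, on the other strand from C130026I21Rik and A530032D15Rik. With DMXAA it held 12.7, 17.7, 14.5, 15.3 and 15.4 CPM in SGK3 knockout and 44.3, 49.5, 50.2, 56.2 and 51.8 CPM in WT cells of b1, and at rest 1.29, 0.521 and 1.04 CPM in SGK3 knockout and 6.59, 3.66 and 6.35 CPM in WT cells. The genotypes did not overlap in either state. Its log2 response was 4.0 ± 0.28 in SGK3 knockout (adjusted p = 1.1e-10) and 3.19 ± 0.23 in WT cells (adjusted p = 1.85e-10), and in b2 2.94 ± 0.36 in SGK1 knockout (adjusted p = 8.35e-06), 3.10 ± 0.38 in dKO (adjusted p = 1.64e-05) and 2.88 ± 0.35 in WT cells (adjusted p = 1.48e-05). Its partner in shared sequence, Gm10552 (chr1:85531806-85539617, minus strand, opposite Sp140), rose by 3.19 ± 0.27 in SGK3 knockout (adjusted p = 4.66e-11) and 2.95 ± 0.24 in WT cells of b1 (adjusted p = 1.16e-11). Gm16028 (chr1:85224572-85233186, plus strand, opposite C130026I21Rik) rose by 3.71 ± 0.28 (adjusted p = 3.29e-12) and 2.95 ± 0.26 (adjusted p = 6.68e-11) in the same cells. Gm16028 shared 36.1% of its 50-base words with transcripts of other genes, 28.3% with C130026I21Rik, so it and the coding genes of the locus are not independent observations. In WT cells of b1 those had log2 fold changes of 1.88 for C130026I21Rik, 2.39 for A530032D15Rik, 2.06 for Sp140 and 1.37 for Sp110. In b2 the call of Gm10552 in WT cells (2.76 ± 0.69, adjusted p = 0.0255) was lost without any of DMXAA replicates 2, 3 and 4 or any rest library (adjusted p 0.055 to 0.139). In SGK1 knockout cells (2.7 ± 0.70, adjusted p = 0.0162) it was lost without rest replicate 1 (0.0574) or 2 (0.0695).

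Gm13822 (chr5:115055377-115061336, minus strand) starts beside Oasl1 on the opposite strand and lies 5082 bases from Oasl2, both interferon-stimulated members of the oligoadenylate synthetase family. With DMXAA it held 3.42, 3.28, 1.89, 3.14 and 3.56 CPM in SGK3 knockout and 5.07, 5.79, 6.41, 7.59 and 7.04 CPM in WT cells of b1. At rest it held 0.307, 0.193 and 0.201 CPM in SGK3 knockout and 1.38, 0.891 and 1.43 CPM in WT cells. All 4 groups stood apart. It rose by 3.70 ± 0.27 in SGK3 knockout (adjusted p = 1.68e-12) and by 2.37 ± 0.23 in WT cells (adjusted p = 4.59e-10), while Oasl1 and Oasl2 rose by 4.63 and 4.56 in WT cells.

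Gm7160 (chr1:105907080-105918012, minus strand) starts 124 bases from Zcchc2 on the opposite strand. It held 3.92, 4.02, 5.18, 4.49 and 5.42 CPM in WT cells with DMXAA and 2.65, 1.01 and 1.70 CPM at rest in b1, a log2 change of 1.36 ± 0.21 (adjusted p = 2.98e-06), where Zcchc2 changed by 2.48. Its response was 1.61 ± 0.21 in SGK3 knockout cells, 2.48 ± 0.51 in SGK1 knockout, 2.39 ± 0.52 in dKO and 1.83 ± 0.49 in WT cells of b2. 2500002B13Rik (chr8:57941088-57961911, plus strand), 194 bases from Sap30, rose by 1.46 ± 0.28 in SGK3 knockout and 1.42 ± 0.28 in WT cells of b1 (adjusted p = 0.000152), and by 2.49 ± 0.37, 1.72 ± 0.37 and 1.35 ± 0.35 in SGK1 knockout, dKO and WT cells of b2. In WT cells of b2 both calls turned on single libraries. That of Gm7160 (adjusted p = 0.0366) was lost without any 1 library other than DMXAA replicate 3 (0.0634 to 0.188), and that of 2500002B13Rik (adjusted p = 0.0321) without DMXAA replicate 4 or any rest library (0.0799 to 0.175). In SGK1 knockout cells the call of Gm7160 was lost without the libraries with a length trend (0.183). Of the other members that rose in WT cells of b1, Gm19710 rose by 2.56 ± 0.26 (adjusted p = 1.51e-09), 1600020E01Rik by 1.51 ± 0.18 (adjusted p = 4.9e-08) and Mir22hg by 1.17 ± 0.20 (adjusted p = 1.55e-05).

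**Figure D3:**
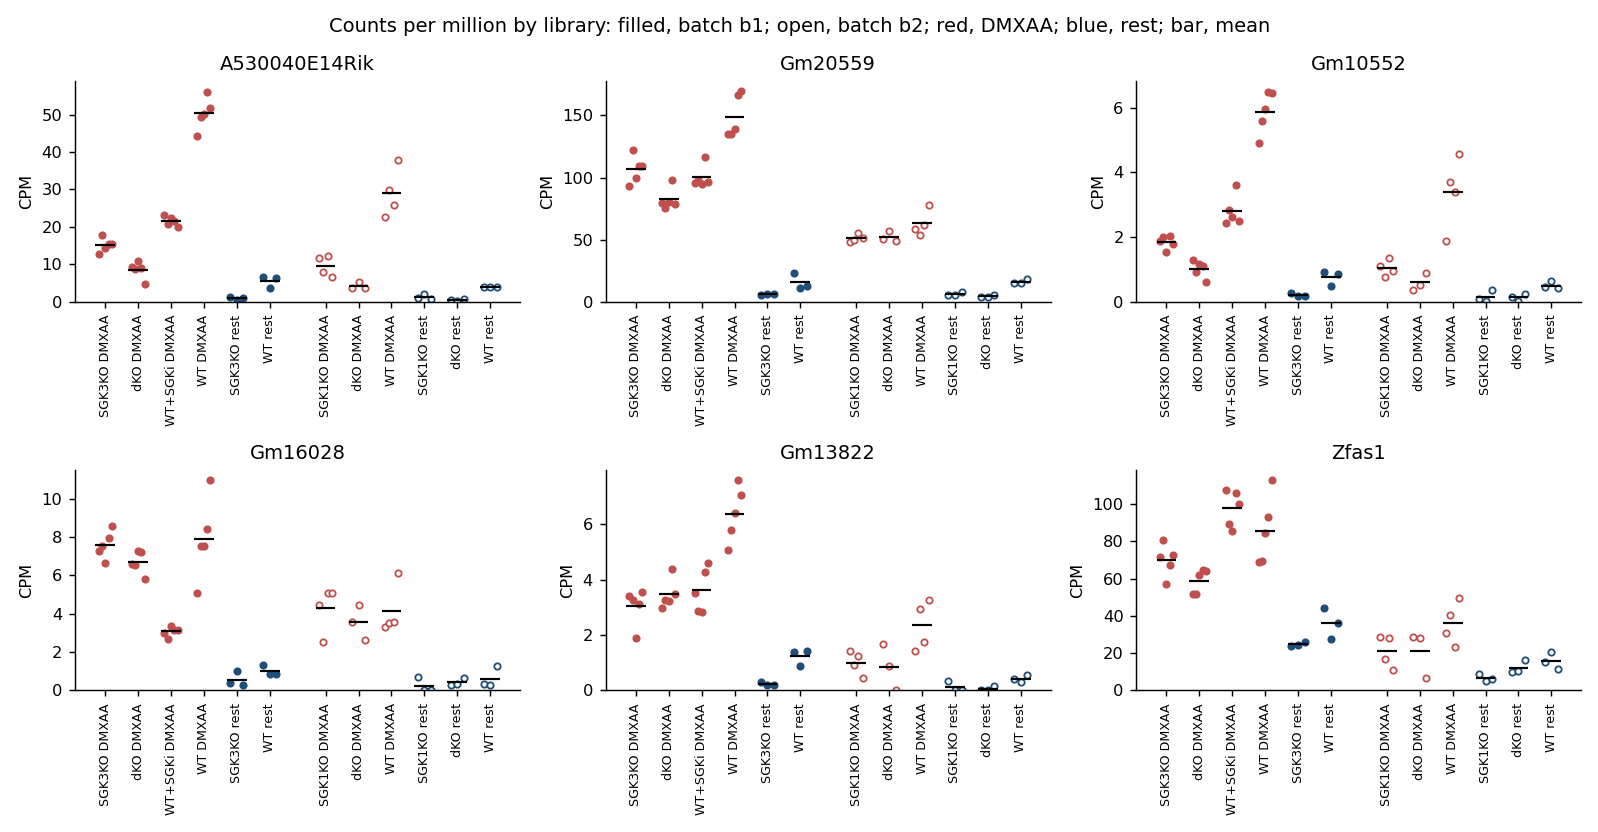
CPM of 6 members that rose with DMXAA, by library. Filled points are b1 and open points b2, red with DMXAA and blue at rest, and the bar is the group mean. In b1 the SGK3 knockout, dKO and SGKi-treated libraries with DMXAA of A530040E14Rik (4.69 to 23.2 CPM) lie below all 5 WT libraries (44.3 to 56.2 CPM), while Zfas1 overlaps between SGK3 knockout and WT.

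Several snoRNA hosts rose with DMXAA in b1. Of a list of 21 such genes, 15 of them members, 19 were tested in b1. In SGK3 knockout cells 8 rose and 1 fell with DMXAA (median log2 fold change 0.37, all genes 0.01), where 16.4% of all genes rose and 13.7% fell. In WT cells 7 rose and 3 fell (median 0.23, all genes 0.00), where 17.9% of all genes rose and 17.4% fell. Zfas1 (chr2:166904854-166907782, plus strand), which starts beside Znfx1, had the largest rise among the members of the list. It held 71.5, 80.6, 57.2, 67.4 and 72.6 CPM in SGK3 knockout and 68.6, 69.4, 84.3, 93.2 and 113 CPM in WT cells with DMXAA, and 23.6, 24.3 and 26.1 CPM in SGK3 knockout and 44.1, 27.7 and 36.4 CPM in WT cells at rest. No stimulated library of either genotype overlapped its resting libraries, and the changes were 1.5 ± 0.17 in SGK3 knockout (adjusted p = 2.46e-07) and 1.25 ± 0.16 in WT cells (adjusted p = 1.76e-06). Znfx1, an interferon-induced RNA sensor, rose by 2.69 in WT cells. Dancr rose by 1.17 ± 0.21 in SGK3 knockout (adjusted p = 5.16e-05) and 0.85 ± 0.20 in WT cells (adjusted p = 0.00125), and Snhg6 by 0.89 ± 0.12 (adjusted p = 5.54e-07) and 0.44 ± 0.11 (adjusted p = 0.00256). With both batches in 1 fit the WT calls of Dancr (0.0655) and Snhg6 (0.152) were lost.

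Gas5 (chr1:160861992-160866109, plus strand), which can bind the glucocorticoid receptor, rose in SGK3 knockout cells by 0.69 ± 0.16 (adjusted p = 0.0025) but did not pass in WT cells (0.23 ± 0.16, adjusted p = 0.323). It held 175, 257, 180, 213 and 244 CPM in SGK3 knockout cells with DMXAA and 125, 128 and 144 CPM at rest, with no overlap. In WT cells it held 140, 155, 172, 211 and 225 CPM with DMXAA and 171, 137 and 156 CPM at rest, and these overlapped. The difference between the 2 responses (0.47 ± 0.23, adjusted p = 0.497) did not pass. Snhg1 rose by 0.91 ± 0.15 in SGK3 knockout (adjusted p = 6.06e-05) and by 0.46 ± 0.15 in WT cells (adjusted p = 0.0169), where the call was lost without WT rest replicate 2 (0.127). Its divergent neighbour Slc3a2, an amino acid transporter subunit, rose by 1.06 in WT cells.

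Ribosomal protein genes, which like most snoRNA hosts carry a 5′ terminal oligopyrimidine tract, had smaller medians in the same direction. With DMXAA 26 of 82 tested rose and 0 fell in SGK3 knockout cells (median 0.12), and 6 rose and 1 fell in WT cells of b1 (median 0.06, or -0.01 with limma on TPM). Their part in the result was not tested. With both batches in 1 fit, 7 snoRNA hosts rose and 0 fell in SGK3 knockout cells and 1 rose and 1 fell in WT cells. In b2 the snoRNA hosts passed in SGK1 knockout cells for 2 of 20 (Zfas1 and Dancr, median 0.24), and in dKO and WT cells for 0 (medians -0.12 and 0.36, 1 and 4 at an unadjusted p under 0.05, and 0 and 1 called by DESeq2). The Zfas1 call of SGK1 knockout cells (1.64 ± 0.45, adjusted p = 0.0249) was lost without rest replicate 2 (0.119) or 3 (0.11) or DMXAA replicate 1 (0.068) or 3 (0.0656), and that of Dancr (1.53 ± 0.48, adjusted p = 0.0437) without any 1 of its libraries other than DMXAA replicate 4 (0.0542 to 0.185).

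Snhg5 (chr9:88377321-88405615, minus strand), also a snoRNA host, fell. With DMXAA it held 19.2, 30.2, 20.1, 25.3 and 29.7 CPM in SGK3 knockout and 13.7, 12.5, 16.9, 15.8 and 19.7 CPM in WT cells of b1, and at rest 27.6, 22.5 and 27.3 CPM in SGK3 knockout and 30.8, 26.98 and 31.2 CPM in WT cells. It fell in WT cells by 0.92 ± 0.13 on the log2 scale (adjusted p = 3.32e-06), with every stimulated library below every resting one, while the SGK3 knockout groups overlapped. The response was 0.87 ± 0.19 higher in SGK3 knockout than in WT cells (adjusted p = 0.0212).

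The member that fell most with DMXAA in WT cells of b1 was Ttc39aos1 (chr4:109260991-109263352, minus strand), whose locus lies 468 bases from Ttc39a. It held 1.28, 1.08, 1.46, 1.17 and 1.43 CPM in SGK3 knockout and 0.811, 1.18, 0.614, 0.893 and 1.30 CPM in WT cells with DMXAA, and 3.61, 2.75 and 2.99 CPM in SGK3 knockout and 3.97, 2.42 and 3.40 CPM in WT cells at rest, with no overlap of states. The log2 change was -1.28 ± 0.24 in SGK3 knockout (adjusted p = 8.03e-05) and -1.76 ± 0.24 in WT cells (adjusted p = 3.81e-07), while Ttc39a changed by -0.33 in WT cells (adjusted p = 0.246). In dKO cells of b2 it changed by -1.51 ± 0.44 (adjusted p = 0.0425), a call lost without dKO DMXAA replicate 1 (0.13) or 3 (0.174) or dKO rest replicate 1 (0.0664) or 2 (0.299). D030028A08Rik (-1.20 ± 0.11, adjusted p = 2.76e-10), 4632404H12Rik (-1.16 ± 0.11, adjusted p = 4.04e-10), Gm39469 (-1.11 ± 0.27, adjusted p = 0.00158) and Gm26532 (-1.04 ± 0.23, adjusted p = 0.000447, 0.0784 with both batches in 1 fit) also fell by 2-fold or more in WT cells of b1.

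9930014A18Rik (chr15:60694120-60703642, plus strand), opposite Lratd2, held 24.8, 20.4, 22.1, 21.7 and 20.1 CPM in WT cells of b1 with DMXAA and 30.8, 38.9 and 36.4 CPM at rest. It changed by -0.71 ± 0.08 in SGK3 knockout (adjusted p = 1.83e-08) and -0.70 ± 0.08 in WT cells of b1 (adjusted p = 1.86e-08), and by -0.57 ± 0.11 in SGK1 knockout (adjusted p = 0.00171), -0.44 ± 0.12 in dKO (adjusted p = 0.0279) and -0.47 ± 0.11 in WT cells of b2 (adjusted p = 0.0166). Lratd2 itself changed by 1.42 in WT cells of b1. The SGK1 knockout call was lost without the libraries with a length trend (0.113), the dKO call was lost without dKO DMXAA replicate 1 (0.168) or 2 (0.152) or dKO rest replicate 1 (0.161) or 2 (0.14), and the WT call of b2 without WT DMXAA replicate 1 (0.0634) or 4 (0.0674) or WT rest replicate 1 (0.0968) or 3 (0.124).

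Oip5os1 (chr2:119424778-119437983, plus strand), known as Cyrano, an RNA that directs the decay of miR-7, fell with DMXAA in SGK3 knockout, SGK1 knockout and WT cells and was not called in dKO cells. It held 38.0, 44.5, 42.5, 39.1 and 54.7 CPM in SGK3 knockout, 47.7, 41.7, 45.5, 45.8 and 51.8 CPM in dKO and 27.2, 29.1, 31.7, 32.7 and 33.0 CPM in WT cells of b1 with DMXAA. At rest it held 66.4, 69.8 and 75.4 CPM in SGK3 knockout and 64.7, 57.5 and 57.1 CPM in WT cells. The stimulated libraries of SGK3 knockout and dKO cells were all above those of WT cells. The response was -0.69 ± 0.09 in SGK3 knockout (adjusted p = 4.47e-07) and -0.96 ± 0.09 in WT cells of b1 (adjusted p = 5.03e-10), and -0.93 ± 0.13 in SGK1 knockout (adjusted p = 7.22e-05) and -0.70 ± 0.13 in WT cells of b2 (adjusted p = 0.00276). The SGK1 knockout call was lost without the libraries with a length trend (0.0649). Norad, which limits Pumilio proteins, fell by 0.25 ± 0.06 in SGK3 knockout (adjusted p = 0.00198) and by 0.40 ± 0.06 in WT cells of b1 (adjusted p = 5.39e-06).

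**Figure D4:**
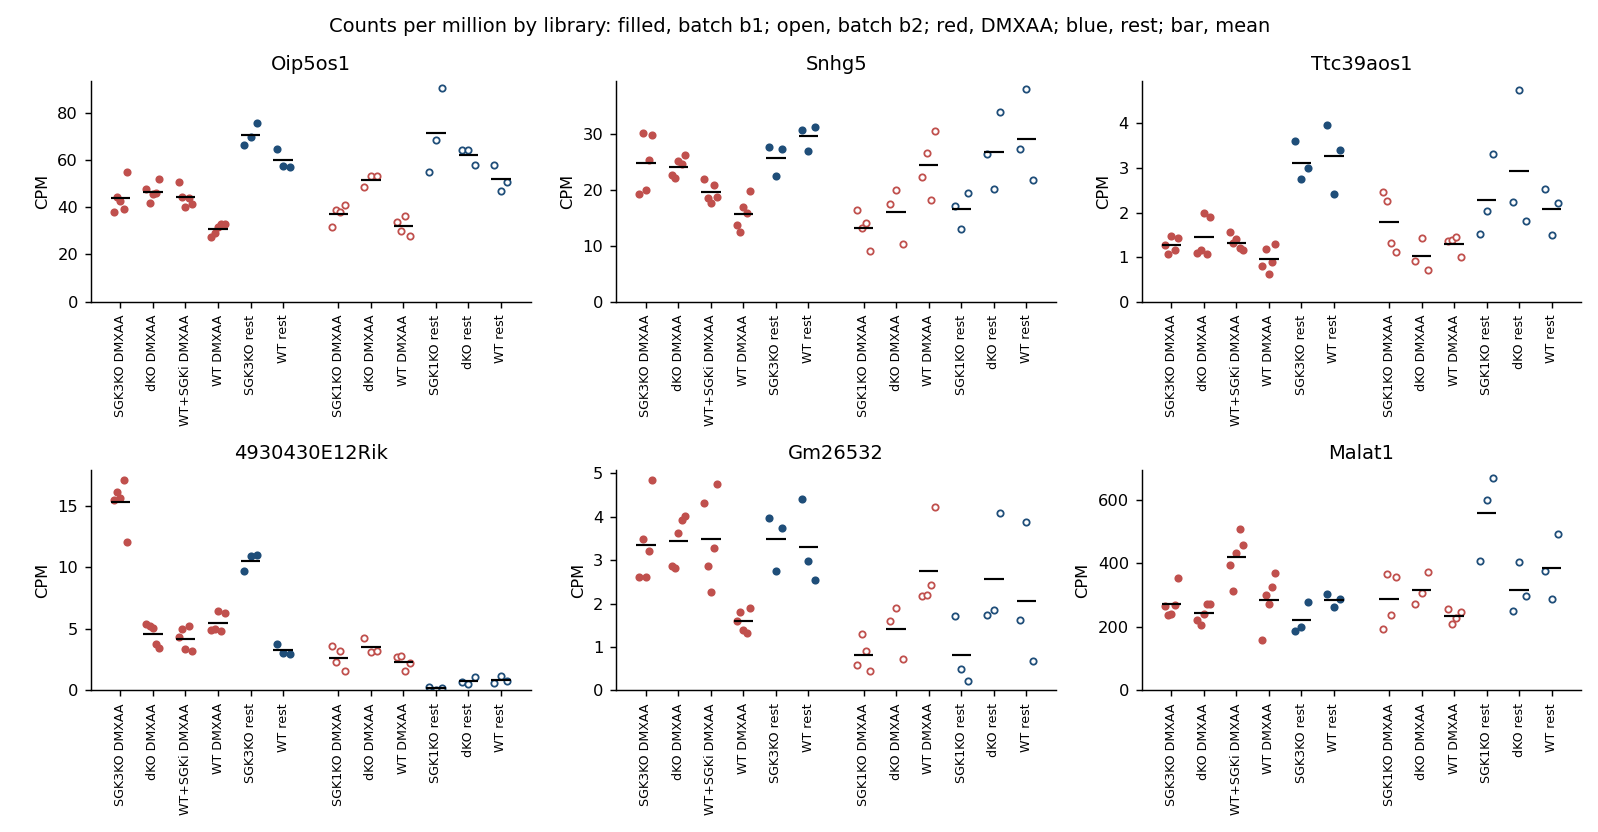
CPM of 6 further members by library, drawn as for the induced members: filled b1, open b2, red DMXAA, blue rest, bar the group mean. Oip5os1 fell with DMXAA and stayed higher in dKO cells (41.7 to 51.8 CPM) than in WT cells (27.2 to 33.0 CPM) of b1, and 4930430E12Rik was high in the SGK3 knockout line at rest and with DMXAA.

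The nuclear, microRNA host, p53 or MYC and macrophage lists were small and held few members. Of 8 RNAs tested of the nuclear list, 3 are members (Malat1, Firre and Norad, the last of them cytoplasmic). With DMXAA 1 rose and 1 fell in SGK3 knockout cells, and 2 rose and 2 fell in WT cells of b1. Norad was the 1 that fell in SGK3 knockout cells and 1 of the 2 in WT cells. Of all genes, 30.1% were called in SGK3 knockout and 35.3% in WT cells. Of 6 microRNA hosts tested, 4 of them members, 2 rose in SGK3 knockout cells, and 1 rose and 2 fell in WT cells. Mir22hg (chr11:75352365-75357502, plus strand), host of miR-22, held 8.40, 7.36, 5.82, 7.34 and 8.59 CPM in SGK3 knockout cells with DMXAA and 3.64, 2.72 and 3.80 CPM at rest, and 4.43, 5.88, 5.82, 5.90 and 7.18 CPM in WT cells with DMXAA and 3.91, 1.84 and 2.01 CPM at rest. States did not overlap, and it rose by 1.15 ± 0.20 in SGK3 knockout (adjusted p = 2.41e-05). It overlaps Tlcd2 on the same strand, which changed by 3.63 in WT cells. Mir17hg, host of the oncogenic miR-17 cluster, did not pass in SGK3 knockout (0.45 ± 0.18, adjusted p = 0.0654) or in WT cells (0.17 ± 0.18, adjusted p = 0.532), nor did Mir142hg in WT cells (-0.13 ± 0.30, adjusted p = 0.808). Pvt1, a neighbour of Myc and the member on the p53 and MYC list, had -0.38 ± 0.17 in WT cells (adjusted p = 0.0832). Of 5 RNAs described in macrophage responses, 1 rose and 1 fell in SGK3 knockout and 0 rose and 2 fell in WT cells, the member Ttc39aos1 among them.

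At rest SGK3 knockout cells differed from WT cells in 11 members, 2 higher and 9 lower, with 10.4% of all genes called (5.84% higher, 4.6% lower). Among the lower members were 4 of those that rose most with DMXAA. A530040E14Rik differed by -2.55 ± 0.30 (adjusted p = 1.26e-06), Gm13822 by -2.39 ± 0.29 (adjusted p = 1.88e-07), Gm10552 by -1.91 ± 0.29 (adjusted p = 1.28e-05) and Gm20559 by -1.38 ± 0.20 (adjusted p = 4.62e-05). The call of Gm13822 was lost with both batches in 1 fit (0.116). Gm43351, which overlaps no coding gene, differed by -0.65 ± 0.12 (adjusted p = 0.000116, or 0.137 in the fit of both batches). The 2 that were higher were 4930430E12Rik (1.69 ± 0.19, adjusted p = 3.3e-08) and Gm15156 (1.05 ± 0.27, adjusted p = 0.0076), the second lost without SGK3 knockout rest replicate 2 (0.0648). F730043M19Rik, Eldr and Crnde were also lower, with log2 differences of -0.75, -0.72 and -0.68, and each of these calls was lost without 1 of several libraries, among them SGK3 knockout rest replicate 1 for F730043M19Rik (0.144) and Crnde (0.131) and replicate 2 for Eldr (0.0542).

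With DMXAA, SGK3 knockout cells had 27 members higher and 12 lower than WT cells (22.9% of all genes called, 13.3% higher and 9.59% lower, median 0.08). A530040E14Rik differed by -1.74 ± 0.18 (adjusted p = 7.9e-08), Gm10552 by -1.67 ± 0.18 (adjusted p = 1.49e-08), Gm13822 by -1.06 ± 0.18 (adjusted p = 2.62e-05, 0.307 in the fit of both batches), Gm19710 by -0.76 ± 0.20 (adjusted p = 0.00432) and Gm20559 by -0.48 ± 0.14 (adjusted p = 0.0118). Some coding neighbours were lower too, A530032D15Rik at -2.01, Oasl2 at -1.12, Oasl1 at -0.79, Sp110 at -0.75, Samd9l at -0.40 and Sp140 at -0.24. They were chosen after their values or positions were seen and are given without a test result. Other neighbours, C130026I21Rik among them, are not given for this comparison. Gm16028 of the same chromosome 1 locus overlapped between the genotypes, with 7.26, 7.52, 6.62, 7.94 and 8.59 CPM in SGK3 knockout and 5.08, 7.51, 7.56, 8.43 and 10.97 CPM in WT cells. Among the higher members were 4930430E12Rik (1.48 ± 0.14, adjusted p = 7.4e-10), 1700058P15Rik (1.14 ± 0.22, adjusted p = 0.000216), Gm15156 (1.14 ± 0.21, adjusted p = 8.91e-05), Gm26532 (1.06 ± 0.20, adjusted p = 0.000163), Snhg5 (0.66 ± 0.12, adjusted p = 0.000114) and Oip5os1 (0.51 ± 0.08, adjusted p = 1.24e-05). With both batches in 1 fit the calls of 1700058P15Rik (0.0966), Gm15156 (0.0831), Gm26532 (0.0671) and Gm19710 (0.0682) were lost.

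4930430E12Rik (chr4:6352105-6357530, minus strand) was high in the SGK3 knockout line. With DMXAA it held 15.5, 16.2, 15.6, 17.1 and 12.1 CPM in SGK3 knockout, 5.43, 5.27, 5.11, 3.80 and 3.49 CPM in dKO and 4.91, 4.99, 6.47, 4.86 and 6.28 CPM in WT cells of b1, and at rest 9.73, 10.9 and 11.03 CPM in SGK3 knockout and 3.77, 3.04 and 3.00 CPM in WT cells. SGK3 knockout libraries were above all others, while dKO libraries, which are labelled as lacking SGK3 as well, overlapped WT. In b2 it rose with DMXAA in SGK1 knockout cells by 3.93 ± 0.70 (adjusted p = 0.000756), where the resting libraries held 0.314, 0 and 0.212 CPM, so that the fitted fold depends on the prior count and is no bound. It also rose in dKO cells by 2.2 ± 0.65 (adjusted p = 0.0473), a call lost without any 1 of the 6 dKO libraries (0.0719 to 0.176).

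Double knockout cells of b1 had 29 members higher and 15 lower than WT cells with DMXAA (26.4% of all genes called, 14.5% higher and 11.9% lower, median 0.07). The lowest log2 differences were those of the chromosome 1 pair. A530040E14Rik held 9.40, 8.89, 10.9, 8.94 and 4.69 CPM in dKO cells, against the WT values above, a log2 difference of -2.56 ± 0.18 (adjusted p = 1.98e-10). Gm10552 held 1.28, 0.936, 1.15, 1.12 and 0.606 CPM in dKO and 4.90, 5.59, 5.96, 6.50 and 6.45 CPM in WT cells, or -2.53 ± 0.19 (adjusted p = 3.01e-12), without overlap. Sp140, the coding gene opposite it, differed by -0.24, and A530032D15Rik by -2.72. The other coding genes of the locus are not given for this comparison. Gm13822 (-0.88 ± 0.18, adjusted p = 0.000256, 0.402 in the fit of both batches), Gm20559 (-0.86 ± 0.14, adjusted p = 4.8e-05) and Zfas1 (-0.55 ± 0.13, adjusted p = 0.00349, 0.196 in that fit) were lower as well. Zfas1 held 51.6, 52.0, 61.9, 64.3 and 63.9 CPM in dKO cells, below every WT library.

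Among members higher in dKO cells of b1 were Gm26532 (1.10 ± 0.20, adjusted p = 8.31e-05), Gm15156 (0.98 ± 0.21, adjusted p = 0.00045), 2010016I18Rik (0.91 ± 0.18, adjusted p = 0.000235), 2500002B13Rik (0.82 ± 0.22, adjusted p = 0.00624), Mir22hg (0.65 ± 0.16, adjusted p = 0.00252) and Oip5os1 (0.60 ± 0.08, adjusted p = 7.85e-07). The calls of Gm15156 (0.136) and Mir22hg (0.0553) were lost with both batches in 1 fit. In b2 with DMXAA, 2010016I18Rik, 2500002B13Rik and Oip5os1 averaged higher in dKO than in WT cells too. Gm15156 (0.568 CPM in dKO and 1.18 CPM in WT), Mir22hg (5.65 and 8.99 CPM) and Gm26532 (1.41 and 2.76 CPM) averaged lower there, against their sign in b1, without being called. Gm26532 (chr8:84935549-84936238, plus strand) held 2.62, 3.49, 2.61, 3.21 and 4.85 CPM in SGK3 knockout, 2.87, 2.82, 3.62, 3.91 and 4.01 CPM in dKO, 4.31, 2.87, 2.27, 3.27 and 4.75 CPM in SGKi-treated and 1.61, 1.81, 1.38, 1.33 and 1.91 CPM in untreated WT cells with DMXAA. No library of the 3 groups reached down to the WT range. In b2 with DMXAA it went the other way, at 0.724 to 1.89 CPM in dKO, 0.448 to 1.30 CPM in SGK1 knockout and 2.18 to 4.21 CPM in WT cells. Neither knockout passed there (-1.76 ± 0.60 in SGK1 knockout, adjusted p = 0.076). Gm15156, inside Ptchd1 on the other strand and sharing 41.0% of its words with it, held 1.21, 1.78, 1.65, 1.60 and 1.15 CPM in dKO and 0.632, 0.859, 0.876, 0.765 and 0.593 CPM in WT cells, and Ptchd1 differed by 0.81.

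WT cells given Sanofi-14h before DMXAA had 35 members higher and 10 lower than WT cells given DMXAA alone (20.8% of all genes called, 10.6% higher and 10.1% lower, median 0.14). The lower ones included 5 of the members described above as rising with DMXAA. Gm16028 held 3.02, 2.704, 3.35, 3.17 and 3.16 CPM with the inhibitor, below the 5.08 to 10.97 CPM without it, a difference of -1.36 ± 0.19 (adjusted p = 3.96e-06, 0.0518 in the fit of both batches). A530040E14Rik held 23.2, 20.9, 22.5, 21.6 and 20.1 CPM with the inhibitor (-1.22 ± 0.17, adjusted p = 2.01e-05), below every WT library without it. Gm10552 (-1.07 ± 0.18, adjusted p = 4.85e-05), Gm13822 (-0.82 ± 0.18, adjusted p = 0.001, 0.526 in that fit) and Gm20559 (-0.57 ± 0.14, adjusted p = 0.00412) were lower as well, as were the coding genes Oasl2 (-2.17), A530032D15Rik (-1.47) and Sp140 (-1.11). The other coding neighbours are not given for this comparison.

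The most abundant member was higher with the inhibitor. Gm10076 differed by 0.61 ± 0.11 (adjusted p = 0.000293, 0.101 in the fit of both batches), with 294, 319, 298, 347 and 237 CPM with Sanofi-14h and 244, 179, 174, 181 and 198 CPM without it, so that 1 library of each group overlapped. Of the snoRNA hosts 7 of 19 were higher and 0 lower (median 0.31, all genes 0.00, of which 10.6% were higher and 10.1% lower, 8 hosts with DESeq2, and 0 with both batches in 1 fit), among them Snhg20 (0.69 ± 0.20, adjusted p = 0.014) and Snhg6 (0.42 ± 0.10, adjusted p = 0.00223). Beside them 42 of 82 ribosomal protein genes were higher and 0 lower, by a median of 0.17, and their part in the result was not tested. Of the 8 RNAs tested of the nuclear list, which holds Norad too, 4 were higher, Firre by 0.66 ± 0.17 (adjusted p = 0.00693). Malat1 held 394, 313, 432, 507 and 457 CPM with the inhibitor and 159, 302, 271, 326 and 370 CPM without it, groups that overlapped. Its difference of 0.56 ± 0.18 (adjusted p = 0.0318) was lost without DMXAA replicate 1 (0.063) or 3 (0.0665) or SGKi replicate 3 (0.0524), 4 (0.0866) or 5 (0.0634).

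In b2 at rest, A530040E14Rik and Gm20559 were lower in both knockout lines. So were the summed macrophage markers, most of which is Lyz2. The sums were 10833 to 11760 TPM in SGK1 knockout and 10709 to 11493 TPM in dKO, against 13006 to 14088 TPM in WT. Their part in the result was not tested. SGK1 knockout cells had 2 members higher and 4 lower than WT cells (6.43% of all genes called, 3.28% higher and 3.15% lower). By edgeR dKO cells had 0 higher and 2 lower (3.03% of all genes, 1.16% higher and 1.87% lower, with 10 members at an unadjusted p under 0.05, and 5 called by DESeq2). Gm20559 held 5.66, 5.54 and 7.94 CPM in SGK1 knockout, 4.17, 4.17 and 5.21 CPM in dKO and 14.8, 14.9 and 18.4 CPM in WT cells. Both knockout lines were below WT without overlap, with differences of -1.33 ± 0.15 (adjusted p = 1.54e-05) and -1.83 ± 0.16 (adjusted p = 1.34e-07). A530040E14Rik held 1.02, 1.958 and 0.766 CPM in SGK1 knockout, 0.577, 0.202 and 0.676 CPM in dKO and 3.90, 4.03 and 3.95 CPM in WT cells. The difference was -1.66 ± 0.36 in SGK1 knockout (adjusted p = 0.00919) and -3.02 ± 0.38 in dKO (adjusted p = 2.91e-05). The SGK1 knockout call was lost without the library labelled SGK1 knockout rest replicate 3 (0.0675) or without the 4 libraries with a length trend (0.0941). The count of 6 was 25 without SGK1 knockout rest replicate 1 and 2 without rest replicate 2 or 3 or WT rest replicate 1 or 2, while the 2 calls of dKO cells stayed at 2 without any 1 library.

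With DMXAA, SGK1 knockout cells had 3 members higher and 5 lower than WT cells of b2 (8.72% of all genes called, 4.66% higher and 4.07% lower). A530040E14Rik held 11.6, 8.01, 12.3 and 6.63 CPM in SGK1 knockout, 3.67, 5.19 and 3.64 CPM in dKO and 22.6, 30.0, 25.9 and 37.8 CPM in WT cells. The 3 genotypes did not overlap, and the difference was -1.59 ± 0.29 in SGK1 knockout (adjusted p = 0.00113) and -2.80 ± 0.35 in dKO (adjusted p = 8.78e-06). Gm20559, at 48.1 to 55.6 CPM in SGK1 knockout, 48.6 to 57.0 CPM in dKO and 54.1 to 78.1 CPM in WT cells, was not called in either. The summed macrophage markers given above, mostly Lyz2, were lower in these knockout lines too, and their part in the result was not tested. 2010016I18Rik differed in SGK1 knockout by 0.88 ± 0.22 (adjusted p = 0.0143, 0.0504 and 0.0589 without WT DMXAA replicate 1 or 2).

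Gas5 held 99.4, 65.2, 97.8 and 64.3 CPM in SGK1 knockout and 113, 139, 108 and 176 CPM in WT cells of b2 with DMXAA, all lower in the knockout (-0.71 ± 0.22, adjusted p = 0.0492), as was Snhg5 (-0.89 ± 0.24, adjusted p = 0.0216). Both calls were lost without SGK1 knockout DMXAA replicate 2 (0.155 and 0.0571) or 4 (0.141 and 0.0806) or WT DMXAA replicate 2 (0.115 and 0.0661) or 4 (0.174 and 0.0851). These 2 were the snoRNA hosts called of 20, whose median was -0.81. At rest the hosts' median was -0.77 in SGK1 knockout cells with 0 called (6 at an unadjusted p under 0.05, and 5 called by DESeq2), or -0.43 without the 4 libraries with a length trend. Ribosomal protein genes lay lower beside them at rest (median -0.69, 8 of 82 lower and 0 higher, and 0 called with a median of -0.26 without those libraries). The count of 8 members was 13 without SGK1 knockout DMXAA replicate 1, 3 without replicate 2 or 4, 1 without WT DMXAA replicate 2 and 2 without WT DMXAA replicate 4.

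Double knockout cells of b2 had 6 members higher and 6 lower than WT cells with DMXAA (12.8% of all genes called, 6.43% higher and 6.41% lower), or 6 in all without WT DMXAA replicate 2 and 5 without dKO DMXAA replicate 3. All 6 that were higher were also higher in dKO cells of b1 (20.7% of the 29 there): 2010016I18Rik, B230354K17Rik, Dubr, Gm7292, Norad and Oip5os1. Of these, Gm7292 and Norad share sequence and are not independent observations. Without dKO DMXAA replicate 3 the b2 calls of 2010016I18Rik (0.0757), B230354K17Rik (0.229), Dubr (0.0657) and Gm7292 (0.205) were lost. Of the 6 lower, 4 were also lower in b1 (26.7% of 15): A530040E14Rik, Gm10552, Erdr1 and Gm47283. A530040E14Rik shares sequence with Gm10552, and Erdr1 with Gm47283, so these 4 are not independent observations. Over all genes tested in both batches, 66.8% of those higher and 53.4% of those lower in b2 were so in b1 (29.1% and 29.5% of those of b1). Of the 44 members called in b1, 32 had the same sign in b2 (72.7%), against 77.3% of all genes called there. Oip5os1 held 48.4, 53.1 and 53.1 CPM in dKO and 33.8, 30.1, 36.1 and 27.7 CPM in WT cells (0.69 ± 0.13, adjusted p = 0.00127). Norad differed by 0.52 ± 0.13 (adjusted p = 0.00809, 0.0522 without dKO DMXAA replicate 3). Gm10552 differed by -2.49 ± 0.68 (adjusted p = 0.0182), a call lost without WT DMXAA replicate 4 (0.0559) or dKO DMXAA replicate 1 (0.0773) or 2 (0.082).

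Gm47283 and Erdr1, which share sequence and lie in the region where the X and Y chromosomes pair, are given together because reads may be split between them. Erdr1 rose with DMXAA by 0.53 ± 0.12 in SGK3 knockout (adjusted p = 0.00125) and 0.78 ± 0.12 in WT cells of b1 (adjusted p = 7.94e-06), and Gm47283 by 0.38 ± 0.11 (adjusted p = 0.0115) and 0.68 ± 0.11 (adjusted p = 2.98e-05). With DMXAA Gm47283 was lower than in WT cells, differing by -0.47 ± 0.10 in SGK3 knockout (adjusted p = 0.000611) and -0.49 ± 0.10 in dKO cells of b1 (adjusted p = 0.000337). In dKO cells of b2 it differed by -1.06 ± 0.31 (adjusted p = 0.0325), which was lost without dKO DMXAA replicate 3 (0.137) or WT DMXAA replicate 2 (0.0649) or 4 (0.103).

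Whether a response itself differed between genotypes was tested as a difference of responses. It was higher in SGK3 knockout than in WT cells for 3 members and lower for 0 (1.04% of all genes called, 0.59% higher and 0.448% lower): 1700058P15Rik (1.5 ± 0.37, adjusted p = 0.0346), Gm13822 (1.34 ± 0.34, adjusted p = 0.0443) and Snhg5 (0.87 ± 0.19, adjusted p = 0.0212). For Gm13822 the lower resting level of the knockout goes with the larger ratio: the stimulated level stayed below WT. The count was 0 without WT rest replicate 1 or 3 and 1 without WT DMXAA replicate 2, SGK3 knockout DMXAA replicate 1, 4 or 5 or any SGK3 knockout rest library, and 0 with both batches in 1 fit. In b2 the response of Gm20559 was higher by 1.02 ± 0.20 in SGK1 knockout (adjusted p = 0.0207) and by 1.55 ± 0.21 in dKO than in WT cells (adjusted p = 0.000429), the 1 member called in each (0.451% of all genes for SGK1 knockout, 0.277% higher and 0.174% lower, and 0.782% for dKO, 0.517% higher and 0.265% lower). The SGK1 knockout call was lost without SGK1 knockout rest replicate 1 (0.0541) or 2 (0.0803), WT DMXAA replicate 1 (0.0656) or WT rest replicate 1 (0.0513) or 3 (0.0673), and held without the library labelled SGK1 knockout rest replicate 3. The dKO call held without any 1 library.

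The levels with DMXAA in b1 were set side by side across the groups for A530040E14Rik, Gm10552, Gm20559, Gm13822 and Gm16028. Only the first 2 of these had every group apart from the next. A530040E14Rik was lowest in dKO, then SGK3 knockout, then SGKi-treated and highest in untreated WT cells of b1, and each of these neighbours stood apart library by library. Gm10552 kept the same order (0.606 to 1.28, 1.55 to 2.03, 2.43 to 3.62 and 4.90 to 6.50 CPM). For Gm20559, dKO (75.2 to 97.7 CPM), SGKi (94.97 to 117 CPM) and SGK3 knockout (93.4 to 122 CPM) overlapped, and WT cells (135 to 169 CPM) stood above all 3. Gm13822 had the 3 groups in overlap at 1.89 to 4.62 CPM, below WT at 5.07 to 7.59 CPM. Gm16028 was lowest in SGKi cells (2.704 to 3.35 CPM), with dKO at 5.79 to 7.28 CPM within the range of WT cells.

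Responses of members were set beside those of the coding genes they start next to. Over the 41 pairs of a member and a divergent coding gene, the log2 responses to DMXAA in WT cells had a Pearson correlation of 0.55 and a Spearman correlation of 0.31 in b1, and 0.74 and 0.40 in b2, as a description across genes that share libraries. Gm13822 with Oasl1, Zfas1 with Znfx1 and Gm7160 with Zcchc2 were among the pairs in which both rose. Gm13822, Gm7160 and 2500002B13Rik, each in such a pair, are members only through the stimulated libraries. Their rise helped to choose them, so the coefficients carry that choice and support nothing about divergent pairs as a class. Positive values were not particular to divergent pairs. Over 69 pairs that overlap on the other strand, the Pearson and Spearman correlations were 0.45 and 0.30 in b1 and 0.37 and 0.22 in b2. With the nearest coding gene they were 0.36 and 0.20 in b1 (120 pairs) and 0.33 and 0.32 in b2 (123 pairs). The same choice of members bears on these values. In 14 pairs that overlap on the same strand the Pearson correlation was -0.47 and the Spearman correlation -0.17 in b1. In b2, with 13 such pairs, both were -0.05.

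**Figure D5:**
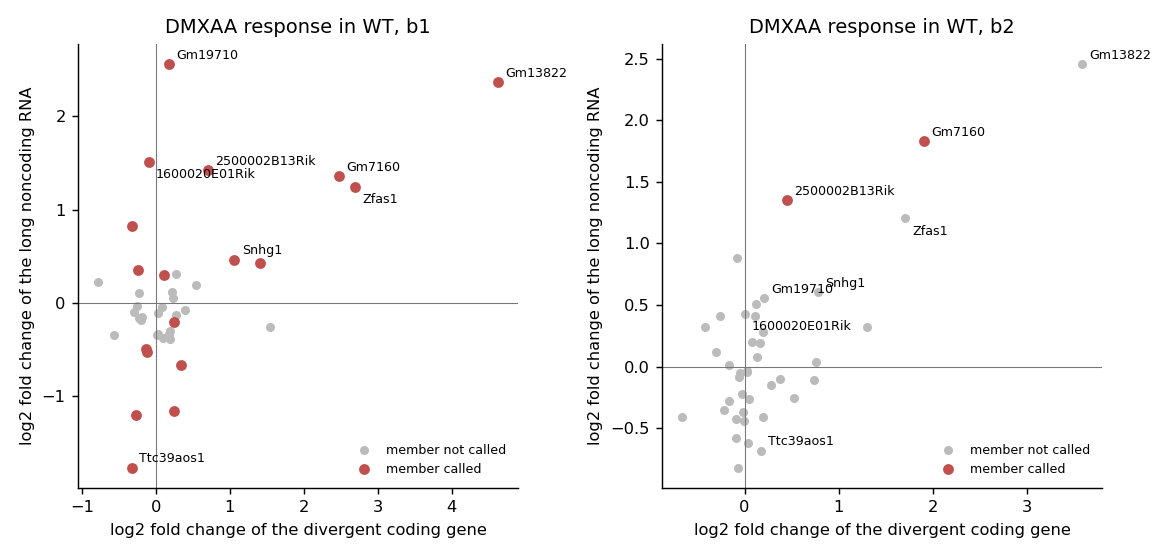
Log2 response to DMXAA in WT cells of the member (vertical axis) against that of its divergent coding gene (horizontal axis), for 41 pairs in b1 and b2. Red points are members called. Gm13822, a member only through the stimulated libraries, lies farthest out beside Oasl1 (2.37 against 4.63 in b1).

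Known response motifs were searched on both strands of the RefSeq promoter windows. Of the 150 members 88 had 1 or more windows, 105 in all. The interferon-stimulated response element, searched as a pair of GAAA repeats with any 2 bases between them, was in 2 of the 105 (1.90%), against 3.44% of all 32851 windows. The kappa B motif was in 4.76%, against 8.46%, the AP-1 motif TGANTCA in 9 (8.57%), against 7.81%, and TGACGTCA in 4 (3.81%), against 1.79%. The 10 members with a window that rose by 2-fold or more in WT cells of b1 had 14 windows, of which 0 held any of the 4. These letters are then not in these windows, whose starts can lie far from the counted transcript.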

How the data were processed

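Poly-A RNA of 50 libraries was sequenced in 3 batches. Reads were handled with STAR 2.7.9a and StringTie 2.2.0 on GRCm39, per the submitters' processing notes. The authors deposited whole-number estimated counts per gene, among which 4 is the most frequent low value, and TPM values per transcript length. How reads shared between genes and strands were treated is not given in the sources used here. Each batch was fitted on its own with edgeR 4.0.16 (R 4.3.3, quasi-likelihood test, robust, TMM scaling, low counts filtered by group), with Benjamini-Hochberg adjustment over all genes tested and a threshold of 0.05. CPM values are scaled by TMM. Alternatives were limma 3.58.1 on log2(TPM + 0.1), DESeq2 1.42.0, other scaling, no filter, counts divided by 4, the groups alone, both batches in 1 fit, a replicate block, removal of a length trend, ranking by resting libraries and leaving out libraries. Tests were tried on simulated counts first. Shared sequence was measured as 50-base words of GENCODE M21 transcripts. Total counts limit precision, and values at 12 counts or fewer per library are near the floor.

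The text drew on a rule that took, per comparison, the 8 called members of largest change in each direction whose groups do not overlap. It also took the 5 of largest change for differences of responses, the 10 most abundant, listed genes, members called in every DMXAA response and those at the limit of the ranking. Not all of these are given above. Malat1 and Gm46620, for example, were called lower with DMXAA in SGK1 knockout cells of b2. Their group means were 288 and 843 CPM with DMXAA and 558 and 1023 CPM at rest. Whether those calls held under the alternatives is not given here. The counts of named members below cover members taken by this rule, given above or not. Members and lists were chosen with earlier results of these data known. Members named outside this rule, and coding neighbours, were chosen after their values or positions were seen.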

Additional observations from a re-analysis of the deposited data

Results flagged for a closer look

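In 7 of 120 values tested (20 genes, each in the groups of 4 or 5 libraries, 5.83%), 1 library stood apart from the others by Dixon's criterion, where chance gives about 1 in 20. Gm20559 stood high at 116.9259 CPM in SGKi replicate 4 (the others 94.97 to 98.2 CPM) and at 97.6908 CPM in dKO replicate 4 of b1 (75.2 to 80.6 CPM). In WT replicate 4 of b2 with DMXAA, Gm16028 stood high at 6.1318 CPM (3.32 to 3.55 CPM) and Gm26532 at 4.214 CPM (2.18 to 2.43 CPM). Gm13822 stood low at 1.8946 CPM in SGK3 knockout DMXAA replicate 3. Norad stood high at 131.3688 CPM in SGKi replicate 3 and Malat1 at 354.3914 CPM in SGK3 knockout DMXAA replicate 5 (236 to 270 CPM).

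In 5 cases the response to DMXAA differed between a knockout and WT cells by a test of the difference itself, in log2 units. The response in SGK3 knockout cells exceeded that in WT cells by 0.8657 for Snhg5, 1.3356 for Gm13822 and 1.4986 for 1700058P15Rik. The response of Gm20559 exceeded that in WT cells by 1.0199 in SGK1 knockout and by 1.5456 in dKO cells. Its resting level was lower in both knockouts, and its mean level with DMXAA was not higher than in WT cells.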

How the results depend on the processing

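Of 216 results for named members, 0 reversed under any alternative, and no member was called in the opposite direction. DESeq2 kept 214 of the 216 calls, relative log expression scaling 210, counts divided by 4 215, removal of the length trend 204, no filter 193, the groups alone 177, limma on TPM 171 and both batches in 1 fit 150. With both batches in 1 fit the members called numbered 42 (WT response, b1), 5 (SGK3 knockout against WT at rest), 12 (the same with DMXAA), 20 (dKO, b1), 16 (SGKi), 0 (SGK3 knockout minus WT response), 21 (WT response, b2), 51 (SGK1 knockout response), 25 (dKO response), 40 (SGK1 knockout against WT at rest), 33 (the same with DMXAA), 9 (dKO at rest), 25 (dKO with DMXAA, b2) and 3 (SGK1 knockout minus WT response). With the groups alone they were 17 (SGK3 knockout at rest), 0 (SGK3 knockout minus WT response), 17 (WT response, b2), 9 (SGK1 knockout response), 4 (dKO response) and 1 (SGK1 knockout at rest). DESeq2 gave 12 (WT response, b2), 24 (SGK1 knockout at rest), 16 (with DMXAA), 5 (dKO at rest) and 3 (SGK1 knockout minus WT response), and counts divided by 4 gave 10 (SGK1 knockout at rest). Removing the length trend gave 11 (WT response, b2), 10 (SGK1 knockout at rest) and 13 (with DMXAA). Limma on TPM gave 1 (SGK3 knockout minus WT response), 4 (WT response, b2), 7 (dKO response) and 0 (SGK1 knockout minus WT response), and no filter 1 (SGK3 knockout minus WT response) and 4 (SGK1 knockout with DMXAA). Limma on TPM also moved the median of all genes by -0.11 in the SGK1 knockout response, 0.13 in SGK1 knockout at rest and -0.11 in the difference of those responses. Leaving out the 4 libraries with a length trend, chosen after seeing the data, gave 13 (WT response, b2), 6 (SGK1 knockout response), 1 (SGK1 knockout at rest), 7 (dKO with DMXAA, b2) and 0 (SGK1 knockout minus WT response). Keeping only the 136 members that are also among the 150 of the resting libraries, likewise chosen after seeing the data, gave 3 (WT response, b2) and stayed within 1.5 times in the other 4 responses. The cause of these shifts was not tested.

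Leaving out 1 library at a time kept 1559 of 1823 calls of named members. Member counts ran over 54 to 68 (WT response, b1), 39 to 58 (SGK3 knockout response), 8 to 14 and 32 to 42 (SGK3 knockout at rest and with DMXAA), 38 to 48 (dKO, b1), 35 to 46 (SGKi), 0 to 4 (SGK3 knockout minus WT response), 3 to 6 (WT response, b2), 11 to 29 (SGK1 knockout response), 6 to 8 (dKO response), 2 to 25 and 1 to 13 (SGK1 knockout at rest and with DMXAA), 2 to 2 and 5 to 11 (dKO at rest and with DMXAA, b2), and 0 to 1 and 1 to 1 (SGK1 knockout and dKO minus WT response).

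Replicate numbers in b1 do not pair the libraries: over 57 pairs with the same number, deviations correlated at -0.095 to 0.077. With the replicate block, 60, 51, 13, 39, 43, 48 and 2 members were called in the 7 comparisons of b1 (WT response, SGK3 knockout response, SGK3 knockout at rest, SGK3 knockout with DMXAA, dKO, SGKi and SGK3 knockout minus WT response), and 144 of 151 named calls were kept. Members with few counts are limited by depth, and 13 members had 0 counts in at least 1 library.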

Other observations

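The 4 libraries marked as reruns enter no comparison. One of them, whose title and treatment label differ, could not be placed in a group. Sgk1 stood at 23.0 TPM in it, at 4.88 TPM in the rerun labelled SGK1 knockout, and at 2.35 and 4.06 TPM in the 2 labelled dKO. In the same order, Gm10076 stood at 938, 1012, 985 and 1514 TPM, Gas5 at 344, 391, 324 and 386 TPM, and Zfas1 at 140.4, 141, 125 and 147 TPM. A530040E14Rik stood at 42.2, 22.2, 9.11 and 8.32 TPM and Gm20559 at 58.1, 52.6, 51.8 and 32.1 TPM. For scale, WT cells of b2 held 32.5 to 50.3 TPM of A530040E14Rik with DMXAA and 5.51 to 5.84 TPM at rest.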
